A study of Mus musculus with 29 samples.

Results

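Coagulation and fibrinolysis genes were examined in RNA-seq libraries of the mouse aortic arch. The 9 members were chosen by name: F3, Tfpi, Tfpi2, Thbd, Procr, Plat, Plau, Plaur and Serpine2. Each was found among the 51456 gene symbols of every library, and each passed the filter on low values that left 13510 genes for testing. The mice were male C57BL/6 fed chow, given as 14 weeks old in the labels, which is also the age the protocol gives for implanting the pumps. The study examined the vascular safety of an antibody to sclerostin (Scl-Ab), the Wnt inhibitor that Sost encodes. In 10 libraries the mice lacked apolipoprotein E (ApoE KO), carried a pump that released 0.11 µL/hr of angiotensin II (AngII) at 15.27 mg/mL and received Scl-Ab at 10 mg/kg once a week for 4 weeks. In 9 libraries the ApoE KO mice carried the same AngII pump and received vehicle. In 10 libraries wild-type (WT) mice received vehicle in the pump and by injection. ApoE KO with AngII is called the model below. No group had ApoE KO without AngII or AngII without ApoE KO, so genotype and infusion cannot be told apart. The model mice that were sampled are those that survived, since the protocol records early deaths, mainly from aortic rupture. The protocol gives 9 WT mice for 10 WT libraries, so n counts libraries, and p-values measure the spread between libraries.

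The members act at the points where a vessel wall starts, restrains and dissolves a clot. Tissue factor (F3) on a cell surface starts coagulation together with factor VII, and tissue factor pathway inhibitor (Tfpi) blocks that complex. Thrombomodulin (Thbd) and the endothelial protein C receptor (Procr) turn thrombin towards the activation of protein C, which slows clotting. Tissue-type and urokinase-type plasminogen activators (Plat and Plau) make plasmin, which dissolves fibrin, and Plaur is the cell-surface receptor of urokinase. The serpin Serpine2, also known as protease nexin-1, inhibits thrombin and both activators.

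Promoter sequence of RefSeq (GRCm38.p6) was at hand for 6 of the 9 members, from 250 bases before a start site to 50 bases after it. The windows of F3, Tfpi, Procr and Plaur are shown because they belong to the member that was lower in the model than in WT and to 3 that were higher. Capitals mark every match, on either strand and with no mismatch, to 6 motifs: AP-1 (TGANTCA), the E-box (CACGTG), the D-box (TTATGNAA), the GC box (GGGCGG), the TATA box (TATAAA) and the ETS motif (CCGGAA). GC box matches may overlap each other.
F3, chr3:121723287-121723586, plus strand: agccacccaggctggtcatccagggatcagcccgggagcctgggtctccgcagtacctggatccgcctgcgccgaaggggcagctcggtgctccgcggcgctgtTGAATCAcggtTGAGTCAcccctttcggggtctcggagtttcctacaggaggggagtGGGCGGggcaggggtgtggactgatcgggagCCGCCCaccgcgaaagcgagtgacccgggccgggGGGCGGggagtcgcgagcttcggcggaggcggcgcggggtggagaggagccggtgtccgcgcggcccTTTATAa
Tfpi, chr2:84476710-84477009, minus strand: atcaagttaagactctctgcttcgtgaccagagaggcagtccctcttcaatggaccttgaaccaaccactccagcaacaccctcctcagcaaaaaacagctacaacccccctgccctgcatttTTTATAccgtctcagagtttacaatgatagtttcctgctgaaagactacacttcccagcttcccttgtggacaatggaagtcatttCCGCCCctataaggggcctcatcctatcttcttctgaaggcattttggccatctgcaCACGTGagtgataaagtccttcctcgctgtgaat
Procr, chr2:155750967-155751266, plus strand: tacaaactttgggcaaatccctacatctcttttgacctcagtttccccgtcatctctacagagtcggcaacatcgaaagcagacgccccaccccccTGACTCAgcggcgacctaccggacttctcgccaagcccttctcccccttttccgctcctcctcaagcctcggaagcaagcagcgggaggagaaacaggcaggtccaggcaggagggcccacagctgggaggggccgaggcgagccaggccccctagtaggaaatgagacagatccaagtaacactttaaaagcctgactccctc
Plaur, chr7:24462233-24462532, plus strand: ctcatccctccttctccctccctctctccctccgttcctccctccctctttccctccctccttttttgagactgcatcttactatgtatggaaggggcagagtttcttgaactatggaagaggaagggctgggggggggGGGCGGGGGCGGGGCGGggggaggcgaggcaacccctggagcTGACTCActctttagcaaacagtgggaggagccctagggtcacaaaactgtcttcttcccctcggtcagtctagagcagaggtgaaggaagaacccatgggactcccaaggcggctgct
The F3 window holds 2 AP-1 matches that begin at -146 and -135 from the start site, beside 3 GC boxes and a TATA box letter run at 44. The human F3 promoter is known for AP-1 and GC box sites. The Procr window holds 1 AP-1 match at -154, and the Plaur window holds 1 at -69 beside 3 GC boxes. Tfpi has 2 windows, and the one shown holds an E-box at 17, a GC box at -41 and a TATA box at -127, and no AP-1 match. The other Tfpi window holds a GC box at -159 and no other match. A further AP-1 match lay at -77 in 1 of the 3 Tfpi2 windows. The Serpine2 window held GC boxes and no match to any other motif. Among 32851 promoter windows of the same length, 7.81% held an AP-1 match, 7.15% an E-box, 35.7% a GC box and 13.6% a TATA box. D-box and ETS letters were in 3.39 and 14.9% of windows and in none of the 4 shown. These matches describe letters and not sites of binding.

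Values are FPKM-like, that is, scaled to gene length and, by their distribution, to a common upper quantile of each library. Depth was read from the steps of low values: for a 2 kb gene, 31.8 to 43.7 fragments gave a value of 1 in the 29 libraries. Fold changes, standard errors (SE) and 95% intervals are from limma on log2(value + 1), and p-values were adjusted over all 13510 genes (Benjamini-Hochberg), with calls made under 0.05. Apoe, the deleted gene, averaged 8.39 with Scl-Ab, 6.71 with vehicle and 264 in WT, as the labels give the genotypes. Sost, which encodes the antibody's target, averaged 289, 399 and 655 in the same order. The labelled tissue showed its contractile smooth muscle markers, whose summed level was 5604 to 13461 with Scl-Ab, 4980.1 to 16849 with vehicle and 17456 to 20929 in WT.

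The first comparison asked how the diseased aortic arch differed from the WT one. In the vehicle-treated model 7 of the 9 members were higher than in WT, where 22.7% of all tested genes were, and 1 member, F3, was lower, where 31.0% of all tested genes were. Tfpi2, among the 7, passed the filter on low values through model libraries alone, since its highest WT value was 0.597. Its direction is thus not independent of the filter. On the log2(value + 1) scale Plau had the largest estimated rise, 2.81-fold, and Procr the next, 2.01-fold, while with a pseudocount of 0.1 Tfpi2 came before Procr (log2 fold changes of 1.35 and 1.08). Serpine2 was not called. All 9 vehicle libraries lay above all 10 WT libraries for Plat, Plau, Tfpi and Procr, 4 of 9 members, against 7.81% of all tested genes in that direction. In the lower direction 9.04% of all tested genes had no overlap and no member did. The median log2 fold change was 0.53 over the 9 members and -0.04 over all tested genes. Under Scl-Ab, no member passed the test against vehicle, where 2.64% of all tested genes were called higher and 4.8% lower. Against WT 7 of 9 still passed it, 6 higher and 1 lower, where 19.8% of all tested genes were higher and 30.5% lower.

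**Figure D1:**
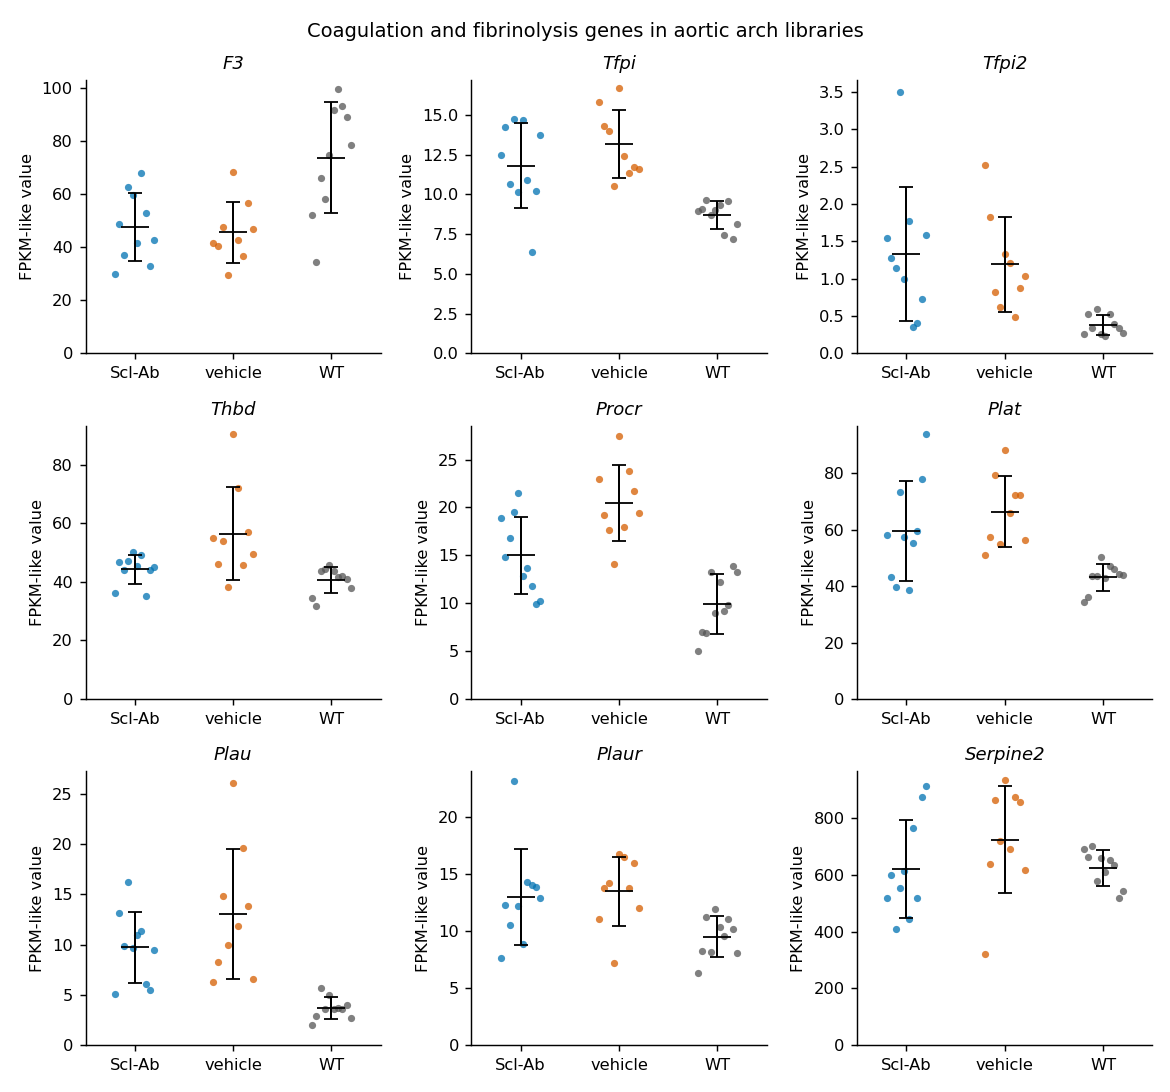
FPKM-like value (linear axis from 0) of each of the 9 members in every library, by group, with bars for the mean and SD of 10 Scl-Ab, 9 vehicle and 10 WT libraries. F3 is the gene whose WT mean, 73.9, is above the means of both model groups, and Plat, Plau, Tfpi and Procr have every vehicle library above every WT library.

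F3 encodes the trigger of coagulation, and it lies on chromosome 3 (GRCm38 chr3:121723537-121735048, plus strand). Its lowest, median and highest values were 29.7, 45.8 and 67.9 with Scl-Ab, 29.5, 42.8 and 68.4 with vehicle, and 34.4, 76.8 and 99.7 in WT. The groups overlapped, but all 9 vehicle libraries and all 10 Scl-Ab libraries lay below the WT median. The mean was 45.6 ± 11.4 in the vehicle-treated model and 73.9 ± 20.97 in WT (SD, n = 9 and 10), a log2 fold change of -0.66 ± 0.18 (SE) with an adjusted p of 0.00295. Against WT the Scl-Ab-treated model had a log2 fold change of -0.61 ± 0.17 (limma adjusted p 0.00482). Scl-Ab against vehicle gave a ratio of 1.04 with a 95% interval of 0.803 to 1.34. For the vehicle-treated model against WT the adjusted p of F3 ranged from 0.000256 to 0.0774 over 40 alternatives. The highest came with a clock index as covariate, where the log2 fold change was -0.47 and the call ended.

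The clock index is the mean log2 level of 8 genes that cycle with Dbp minus that of 4 genes of the opposite phase. It was 2.90 ± 0.65 with Scl-Ab, 0.32 ± 1.27 with vehicle and 2.36 ± 1.67 in WT (SD, n = 10, 9 and 10). In WT libraries, F3 and the clock index had r = 0.762 and rho = 0.709 (permutation p = 0.00841 and 0.0268, n = 10; adjusted over all relations of members with 4 scores in 3 groups 0.0757 and 0.159). Without the 2 libraries farthest from the median of the index, r was 0.878. The WT index was -0.184 to 0.552 in replicates 20 to 22 and 2.09 to 4.26 in replicates 23 to 29. The part of replicate order in this relation was not tested. In the model groups r was 0.0435 with Scl-Ab (permutation p = 0.904, n = 10) and -0.448 with vehicle (exact permutation p = 0.228, n = 9), and 0.481 and 0.515 without 2 libraries, so no relation of F3 with the index passed in any group after adjustment.

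Tfpi, the inhibitor of the factor VII and tissue factor complex (chr2:84432855-84476775, minus strand), changed in the opposite direction to F3. Its lowest, median and highest values were 6.38, 11.7 and 14.7 with Scl-Ab, 10.5, 12.4 and 16.7 with vehicle, and 7.17, 9.00 and 9.61 in WT. Every vehicle library was above every WT library, and 9 of 10 Scl-Ab libraries were above the highest WT value, while Scl-Ab replicate 17 was below the lowest. The mean was 13.1 ± 2.15 in the vehicle-treated model and 8.71 ± 0.86 in WT (SD, n = 9 and 10), 1.45-fold higher with a limma adjusted p of 0.000155. In the Scl-Ab-treated model it was 1.29-fold higher than in WT (limma adjusted p 0.00428). The ratio of Scl-Ab to vehicle was 0.894, with a 95% interval of 0.767 to 1.04. For the vehicle-treated model against WT the log2 fold change was 0.53, and 0.34 with the clock index as covariate (limma adjusted p 0.0204).

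Tfpi2 encodes a related Kunitz-type inhibitor that acts mainly on plasmin and other proteases in the matrix (chr6:3962595-3988919, minus strand). It was the lowest of the 9 members in every group. Its lowest, median and highest values were 0.349, 1.21 and 3.50 with Scl-Ab, 0.489, 1.04 and 2.52 with vehicle, and 0.229, 0.339 and 0.597 in WT. In both model groups 8 libraries were above the highest WT value. On the log2(value + 1) scale the vehicle-treated model was 1.55-fold above WT (limma adjusted p 0.00257) and the Scl-Ab-treated model 1.60-fold (limma adjusted p 0.00102). That scale understates the change of a gene this low: with a pseudocount of 0.1 the log2 fold changes were 1.35 and 1.39. The adjusted p for the vehicle-treated model ranged from 0.000329 to 0.0956 over 39 alternatives. The call ended under quantile normalization and with the clock index as covariate.

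Thbd, the thrombomodulin gene, is a single exon (chr2:148404466-148408188, minus strand). Across libraries the lowest, median and highest values were 35.1, 45.1 and 50.03 with Scl-Ab, 38.4, 53.8 and 90.4 with vehicle, and 31.9, 41.9 and 45.8 in WT. With vehicle 7 of 9 libraries were above the highest WT value, and all 10 Scl-Ab libraries lay below the vehicle median. The mean was 56.4 ± 15.8 in the vehicle-treated model and 40.6 ± 4.53 in WT (SD, n = 9 and 10), 1.35-fold higher with a limma adjusted p of 0.00172. The Scl-Ab-treated model was 1.09-fold of WT and did not pass (limma adjusted p 0.345). The direct ratio of Scl-Ab to vehicle was 0.809, with a 95% interval of 0.693 to 0.946, a p of 0.00943 before adjustment and 0.0798 after it, so the difference between the treatments was not called either once all tested genes were adjusted for. An exact permutation test of Thbd alone (two-sided) gave an unadjusted p of 0.0219. The limma adjusted p ranged from 0.0325 to 0.912 over 40 alternatives, and it passed in 1 of them, without vehicle replicate 4, the lowest vehicle library.

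Procr, the receptor that presents protein C to the thrombin and thrombomodulin complex (chr2:155751117-155755471, plus strand), had a larger estimated rise than Thbd. Procr had lowest, median and highest values of 9.89, 14.2 and 21.5 with Scl-Ab, 14.1, 19.4 and 27.4 with vehicle, and 4.98, 9.49 and 13.9 in WT. The vehicle and WT libraries did not overlap, although the lowest vehicle and the highest WT value were close. The mean was 20.4 ± 3.96 in the vehicle-treated model and 9.95 ± 3.12 in WT (SD, n = 9 and 10), 2.01-fold higher with a limma adjusted p of 8.65e-06. With Scl-Ab it was 1.48-fold above WT (limma adjusted p 0.00412), and all 10 libraries were above the WT median. Against vehicle the ratio was 0.736 with a 95% interval of 0.584 to 0.927, and 5 of 10 Scl-Ab libraries lay below the lowest vehicle value. Those 5 were replicates 15 to 19, while replicates 10 to 14 were at 14.8 or above. The part of replicate order in this difference was not tested. For Procr against vehicle the p was 0.0111 before and 0.0872 after adjustment by limma. The adjusted p was above 0.05 under all 40 alternatives. An exact permutation test of Procr alone (two-sided) gave an unadjusted p of 0.00971. Procr and Thbd had the smallest unadjusted p of the 9 members by this test, and the other members had 0.221 to 0.806.

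Plat, the tissue-type plasminogen activator (chr8:22757727-22782844, plus strand), was among the higher-valued members. The lowest, median and highest Plat values were 38.6, 57.8 and 93.9 with Scl-Ab, 51.2, 65.9 and 88.3 with vehicle, and 34.2, 43.9 and 50.2 in WT. All vehicle libraries were above all WT libraries, while 7 of 10 Scl-Ab libraries were above the highest WT value. The mean was 66.4 ± 12.5 in the vehicle-treated model and 43.2 ± 4.78 in WT (SD, n = 9 and 10), 1.51-fold higher with a limma adjusted p of 0.000486. The Scl-Ab-treated model was 1.33-fold above WT by limma (adjusted p 0.00997). A Wilcoxon rank sum test gave an adjusted p of 0.0761 for it, and the other alternatives gave 0.00208 to 0.0224. Scl-Ab to vehicle was 0.880, with a 95% interval of 0.728 to 1.06.

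Plau, the urokinase-type activator (chr14:20836660-20843385, plus strand), had the largest estimated rise of the members over WT on the log2(value + 1) scale. With a pseudocount of 0.1 that held with vehicle (1.71 for Plau and 1.35 for Tfpi2 as log2 fold changes) but not with Scl-Ab (1.35 and 1.39). Across libraries the lowest, median and highest levels were 5.06, 9.80 and 16.2 with Scl-Ab, 6.28, 11.8 and 26.1 with vehicle, and 1.96, 3.59 and 5.71 in WT. No vehicle library overlapped WT, and 8 of 10 Scl-Ab libraries were above the highest WT value. The mean was 13.03 ± 6.501 in the vehicle-treated model and 3.67 ± 1.08 in WT (SD, n = 9 and 10), 2.81-fold higher with a limma adjusted p of 2.19e-06. The Scl-Ab-treated model was 2.24-fold above WT (limma adjusted p 5.09e-05). The Scl-Ab to vehicle ratio was 0.795, with a 95% interval of 0.582 to 1.09.

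Plaur, the urokinase receptor (chr7:24462484-24475968, plus strand), had a smaller estimated rise than its ligand. Plaur had lowest, median and highest levels of 7.61, 12.6 and 23.2 with Scl-Ab, 7.15, 13.8 and 16.8 with vehicle, and 6.28, 9.88 and 11.9 in WT. In both model groups 7 libraries were above the highest WT value. The vehicle-treated model was 1.36-fold above WT (limma adjusted p 0.0144, range 0.00189 to 0.0751 over 40 alternatives, the call ending with the clock index as covariate, where the log2 fold change was 0.41 in place of 0.45). The Scl-Ab-treated model was 1.299-fold above WT (limma adjusted p 0.0335). That call ended in 7 of 40 alternatives, with adjusted p up to 0.0783: with no filter on low values, and without Scl-Ab replicate 13 or 16 or WT replicate 20, 21, 23 or 29. Scl-Ab to vehicle was 0.954, with a 95% interval of 0.769 to 1.18.

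Serpine2, protease nexin-1, which inhibits thrombin and the plasminogen activators (chr1:79794197-79861180, minus strand), had the highest level of the members by a wide margin. The lowest, median and highest Serpine2 values were 410.4, 577 and 913 with Scl-Ab, 320.2, 721 and 936 with vehicle, and 518, 644 and 703 in WT. The groups overlapped throughout, and vehicle replicate 1 was the lowest of all 29 libraries. The means were 622 ± 174, 725 ± 189.8 and 625 ± 62.2 (SD, n = 10, 9 and 10). None of its 3 comparisons was called: the ratios were 1.12 for the vehicle-treated model against WT (95% interval 0.892 to 1.40), 0.966 for the Scl-Ab-treated model against WT (0.776 to 1.204) and 0.864 for Scl-Ab against vehicle (0.689 to 1.08).

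The second comparison set Scl-Ab against vehicle within the model. By limma 0 of 9 members were called, where 2.64% of all tested genes were higher and 4.80% lower. At an unadjusted limma p under 0.05 there were 2 of 9 members, Thbd and Procr, where 3378 of the 13510 tested genes were. A Wilcoxon test called 0 members and 412 of all tested genes. The estimates of 7 members were below vehicle and those of F3 and Tfpi2 above it, with a median log2 fold change of -0.18 over the members and -0.01 over all tested genes. The 95% intervals reached down to 0.582 of vehicle (Plau) and up to 1.34 (F3), so the data do not show that the treatments are alike. Of all calls in this comparison 35.4% were higher, against 65.0% with libraries scaled to equal totals and 47.9% with median ratio scaling. The third comparison set the Scl-Ab-treated model against WT. Plat, Plau, Plaur, Tfpi, Tfpi2 and Procr were higher, 6 of 9 members where 19.8% of all tested genes were. Here too Tfpi2 had passed the filter through model libraries alone. F3 was lower, where 30.5% of all tested genes were. Of all calls 39.4% were higher, against 50.4% with median ratio scaling. No member was free of overlap in either direction, where 5.74% of all tested genes were higher and 6.54% lower without overlap. This comparison shares its WT libraries with the first.

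**Figure D2:**
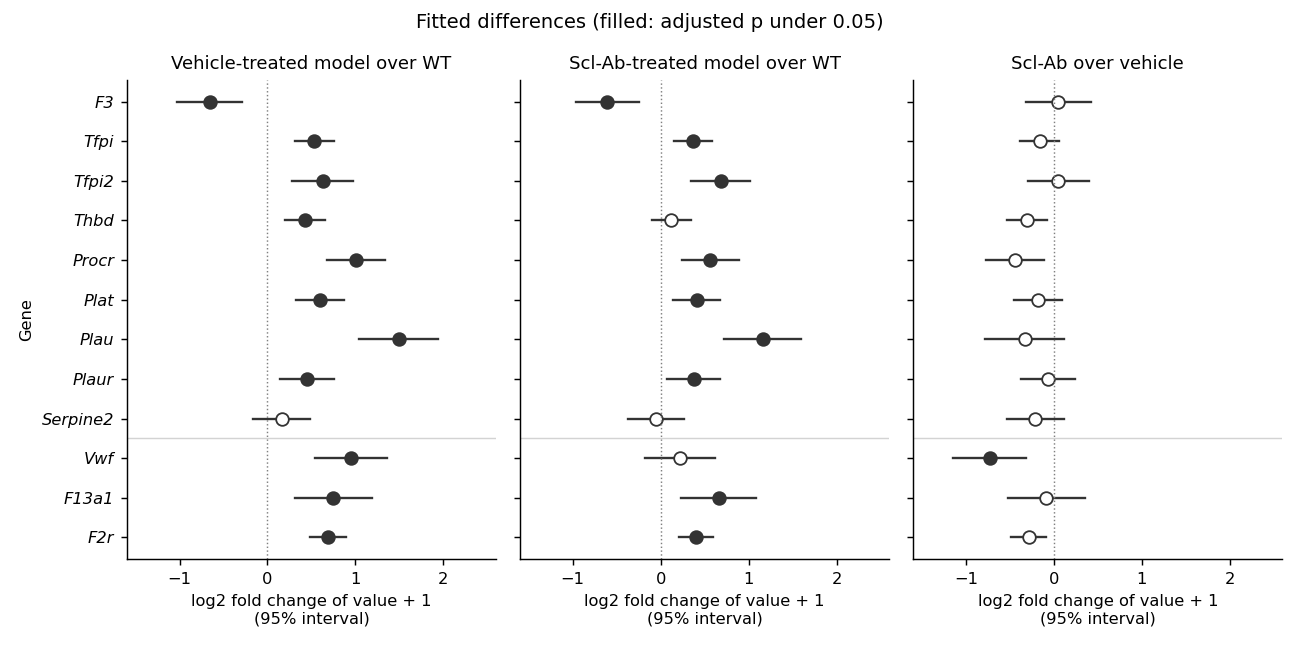
Log2 fold change of value + 1 with 95% interval for the 9 members and, under the line, Vwf, F13a1 and F2r, in the vehicle-treated model over WT, the Scl-Ab-treated model over WT, and Scl-Ab over vehicle; filled points have an adjusted p under 0.05. F3 is left of 0 against WT in both panels, and in the Scl-Ab over vehicle panel Vwf at -0.73 is the filled point.

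Markers of cell types were compared between the same groups. Of all tested genes, 22.7% were higher and 31.0% lower in the vehicle-treated model against WT. In the Scl-Ab-treated model against WT 19.8% were higher and 30.5% lower, and with Scl-Ab against vehicle 2.64% and 4.80%. At an unadjusted limma p under 0.05, 3378 of the 13510 tested genes passed with Scl-Ab against vehicle. A count of 1 of 8 against WT is below the matching share of all tested genes. In the vehicle-treated model against WT, 12 of 12 macrophage markers, 8 of 12 endothelial markers and 5 of 8 fibroblast markers were higher and 9 of 10 contractile smooth muscle markers lower. The summed macrophage level was 971 to 2329 with Scl-Ab, 1237 to 3711 with vehicle and 129 to 430.4 in WT. The summed endothelial level was 197 to 381, 301 to 429 and 199 to 316 in the same order, and in Scl-Ab against vehicle 2 of 12 endothelial markers were lower. Platelet markers had 3 of 10 members tested and 1 higher in the vehicle-treated model, with sums of 25.1 to 57.9, 24.1 to 56.3 and 25.4 to 41.8. Cardiac muscle markers were higher for 5 of 8 genes in the Scl-Ab-treated model against WT and for 1 of 8 with Scl-Ab against vehicle (6 of 8 at an unadjusted p under 0.05), and lower for 1 of 8 in the vehicle-treated model against WT. Their sums were 43.2 to 901 with Scl-Ab, 29.8 to 398 with vehicle and 27.6 to 398 in WT. Adipocyte markers were higher than in WT for 1 of 8 genes with vehicle and 2 of 8 with Scl-Ab, where 1 was lower. With Scl-Ab against vehicle 0 of 8 were called. Adipocyte sums varied widely within groups, from 878 to 8137 with Scl-Ab, 623 to 10553 with vehicle and 406 to 2805 in WT. Neutrophil markers had 3 of 8 genes tested, of which 3 were higher in the vehicle-treated model and 2 in the Scl-Ab-treated model than in WT. All 8 together summed to 4.37 to 32.7 with Scl-Ab, 4.84 to 35.1 with vehicle and 0.907 to 4.14 in WT. At such low WT levels their direction may not be independent of the filter. Erythrocyte markers were lower than in WT for 4 of 5 tested genes with Scl-Ab and 2 of 5 with vehicle. Hepatocyte markers summed to at most 1.42 in any library, and Fgb, the fibrinogen beta chain, was listed at 0 in all vehicle and WT libraries. Glucocorticoid-responsive genes were higher in the vehicle-treated model than in WT for 5 of 6 genes and lower with Scl-Ab than with vehicle for 3 of 6. The part of these shifts in the members' results was not tested. In bulk tissue, more cells of a type and more RNA per cell cannot be told apart.

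Within each group the order of the members' length-scaled levels fell into tiers, with no overlap in range between tiers in the model groups. Serpine2 stood alone at the top, at percentile 99.4 of tested genes with Scl-Ab, 99.5 with vehicle and 99.3 in WT. Plat, F3 and Thbd formed the next tier, with overlapping ranges. Procr, Plaur, Tfpi and Plau followed in both model groups, again with overlap, and Tfpi2 came last at percentiles 6.62, 5.46 and 1.31 in the same order. In WT, all Plau values were below those of Plaur and Tfpi but its range overlapped that of Procr, and it stood at percentile 26.7, while it stood at 51.6 with Scl-Ab and 60.4 with vehicle. The leading gene of the second tier was Plat in both model groups and F3 in WT. F3 exceeded Plat in 9 of 10 WT libraries, and Thbd exceeded F3 in 9 of 9 vehicle libraries.

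Ratios between genes of a library do not depend on how libraries are scaled, and they are given as geometric means without a test. F3 to Tfpi was 4.01 with Scl-Ab, 3.42 with vehicle and 8.16 in WT. The highest vehicle ratio, 4.84, exceeded the lowest WT ratio, 3.79, so the groups overlapped. Plau to Plaur was 0.734, 0.896 and 0.377 in the same order. Here the lowest vehicle ratio, 0.548, was above the highest WT ratio, 0.510, while the lowest Scl-Ab ratio was 0.395. Tfpi2 to Tfpi was 0.0944, 0.0814 and 0.0410.

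**Figure D3:**
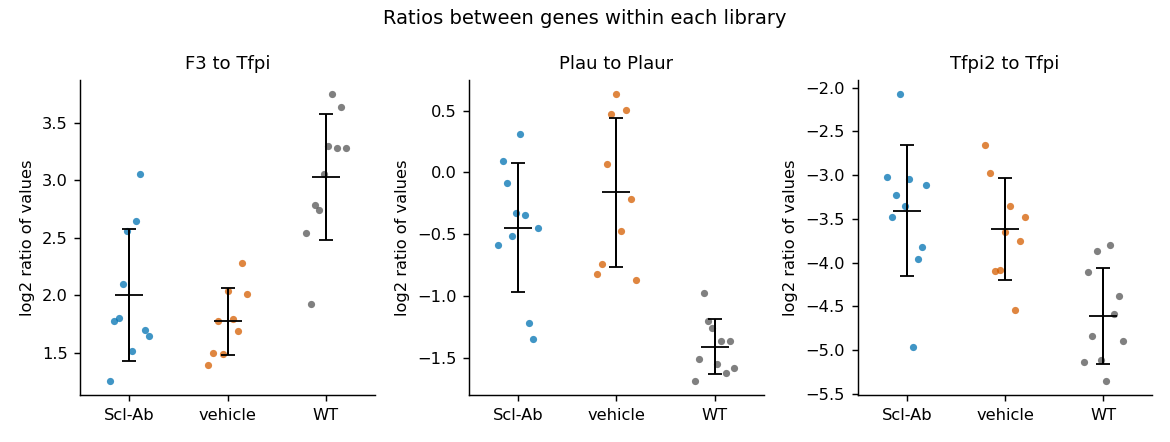
Log2 ratio of 2 genes' values in each library, by group, with bars for the mean and SD of 10 Scl-Ab, 9 vehicle and 10 WT libraries. For Plau to Plaur all 9 vehicle libraries are above all 10 WT libraries, and F3 to Tfpi has its highest geometric mean, 8.16, in WT.

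Of 47 other coagulation and fibrinolysis genes listed by function, 21 passed the filter on low values. In the vehicle-treated model 10 of the 21 were higher than in WT, where 22.7% of all tested genes were, and 2 lower, where 31.0% were, with a median log2 fold change of 0.17 against -0.04 over all tested genes. The factor VII gene F7, among the 10, passed the filter through model libraries alone, with a highest WT value of 0.0983. The antithrombin gene Serpinc1, among the 2, met the filter by its WT libraries, the lowest at 1.18. Their directions are thus not independent of the filter. Among clotting factors, Vwf, the carrier of factor VIII made by endothelium and megakaryocytes, averaged 10.5 ± 4.47 with Scl-Ab, 16.97 ± 3.97 with vehicle and 8.41 ± 2.40 in WT. It was 1.93-fold above WT in the vehicle-treated model (limma adjusted p 0.000266), with no overlap. F13a1, the fibrin cross-linking subunit that macrophages and platelets carry, averaged 19.8 ± 6.86, 20.97 ± 6.75 and 12.4 ± 4.57 in the same order and was 1.68-fold above WT with vehicle (limma adjusted p 0.00446). Factor VII (F7), the partner of tissue factor, had a mean of 0.911 with Scl-Ab and 1.24 with vehicle, and was listed at 0 in 8 of 10 WT libraries. Factor X (F10), singled out after its values were seen, did not pass the filter and averaged 0.857 with Scl-Ab, 0.871 with vehicle and 0.0219 in WT. Kng2, a kininogen, was 1.92-fold above WT with vehicle (limma adjusted p 0.0379), but a Wilcoxon test gave an adjusted p of 0.194 and 5 of 9 vehicle libraries were above the WT median. Kng1 is its near copy, and how reads were divided between these genes was not examined.

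Anticoagulant genes moved in both directions. Protein S (Pros1), the cofactor of activated protein C, averaged 39.5 with Scl-Ab, 42.2 with vehicle and 31.6 in WT, and was 1.32-fold above WT with vehicle, without overlap (limma adjusted p 8.55e-05). Antithrombin (Serpinc1) was 0.642-fold of WT with vehicle (limma adjusted p 0.000102), at low means of 0.871, 0.745 and 1.67. Entpd1, the ectonucleotidase that removes platelet-activating ADP, averaged 48.7, 54.7 and 83.2 and was 0.655-fold of WT with vehicle, again without overlap (limma adjusted p 7.86e-06). The thrombin receptor F2r averaged 42.9 ± 8.33, 52.4 ± 8.90 and 31.7 ± 1.62, and was 1.61-fold above WT with vehicle, without overlap (limma adjusted p 1.33e-06). Anxa2, a cell-surface docking protein for plasminogen and Plat, was 1.304-fold above WT with vehicle (limma adjusted p 0.00520), and Lrp1, a clearance receptor for protease and serpin complexes, was 1.15-fold above it (limma adjusted p 0.00457). Lman1 and Mcfd2, which carry factors V and VIII out of the endoplasmic reticulum, were 1.46-fold and 1.22-fold above WT (limma adjusted p 2.49e-05 and 0.00135).

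With Scl-Ab against vehicle 0 of the 21 genes were higher and 2 lower by limma, where 2.64% of all tested genes were higher and 4.80% lower. Of the 21, 6 had an unadjusted limma p under 0.05, where 3378 of the 13510 tested genes had. A Wilcoxon test called 0 of the 21 and 412 of all tested genes. Vwf was 0.603-fold of vehicle, with a 95% interval of 0.453 to 0.802, and 6 of 10 Scl-Ab libraries were below the lowest vehicle value. Those were replicate 13, at 12.6 against a lowest vehicle value of 12.7, and replicates 15 to 19, at 4.72 to 10.5. The part of replicate order in this difference was not tested. The limma adjusted p of Vwf, 0.0273, ranged from 0.0121 to 0.403, and the call ended in 8 of 40 alternatives. Among them were the fits without Scl-Ab replicate 18 (0.0512) and without vehicle replicate 5 (0.0516). Proz, the protein Z gene, was 0.848-fold of vehicle (limma adjusted p 0.0329) at means of 0.617 and 0.912. No Scl-Ab library reached 1 for Proz, the highest being 0.886, so it passed the filter through the other groups. F2r was 0.819-fold of vehicle with a limma adjusted p of 0.0671, and it passed without Scl-Ab replicate 13, 16 or 19 or vehicle replicate 1 (range over 40 alternatives 0.0188 to 0.780). Against WT, the Scl-Ab-treated model had 8 of the 21 genes higher and 3 lower, where 19.8% and 30.5% of all tested genes were. Entpd1 was 0.580-fold of WT there, without overlap (limma adjusted p 9.52e-08), and Lrp1 was 1.2496-fold of it (limma adjusted p 2.54e-05). Among the 8, F7 had passed the filter through model libraries alone. Among the 3, Proz had passed it without any Scl-Ab library, and Serpinc1 had met it by its WT libraries.

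**Figure D4:**
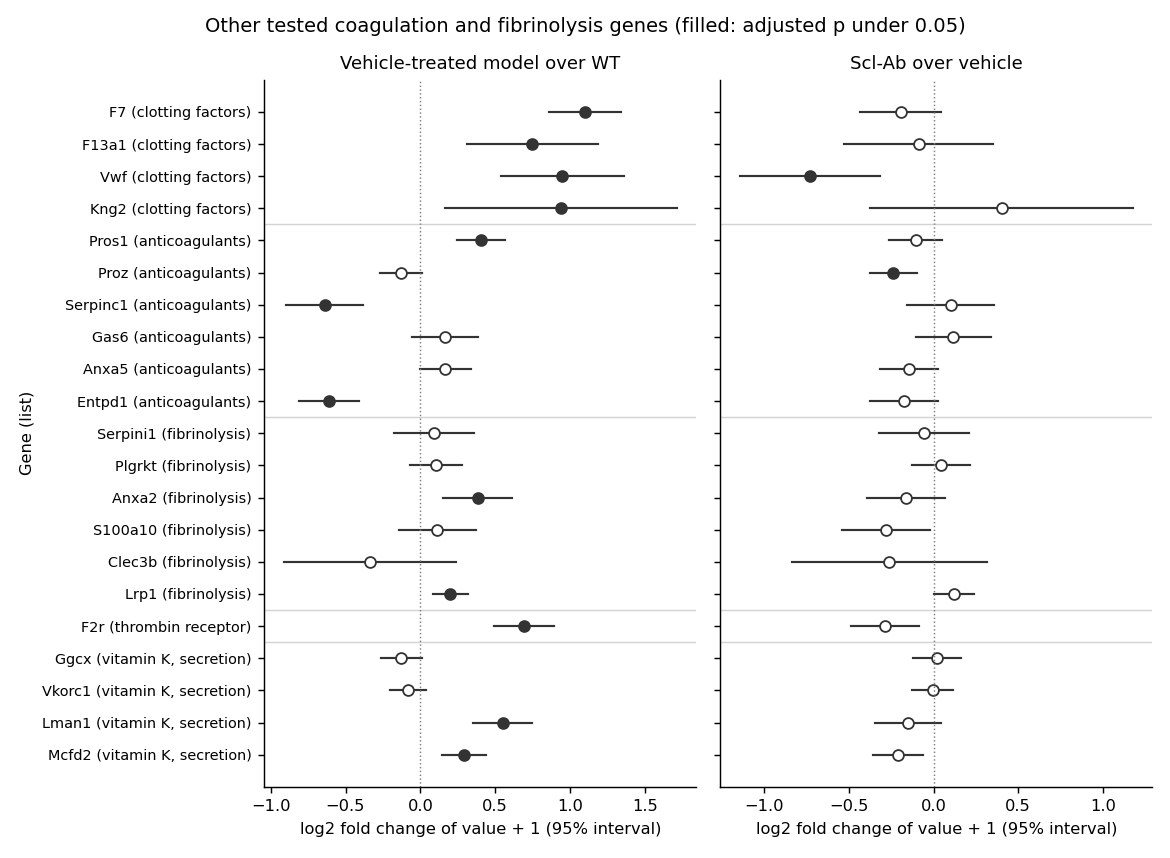
Log2 fold change of value + 1 with 95% interval for the 21 other tested genes, grouped by list, in the vehicle-treated model over WT and in Scl-Ab over vehicle; filled points have an adjusted p under 0.05. Left, 10 filled points are right of 0 and 2, Serpinc1 and Entpd1, are left of it; right, the filled points are Vwf and Proz.

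Relations between members were computed among the libraries of each group. Of the 36 pairs, 25 had a positive r with Scl-Ab, 32 with vehicle and 25 in WT, with a median r of 0.180, 0.477 and 0.101. After adjustment over the 36 pairs in 3 groups, 0 relations with Scl-Ab, 1 with vehicle and 2 in WT passed by Pearson's r, and 0, 2 and 1 by Spearman's rho. Plat and Plau had r = 0.929 and rho = 0.933 in vehicle libraries (exact permutation p = 0.000477 and 0.000750, n = 9; adjusted 0.0257 and 0.0270), and r was 0.842 without the 2 libraries farthest from the Plat median. Plau and Plaur had r = 0.888 and rho = 0.830 in WT libraries (permutation p = 0.0004 and 0.00463, n = 10; adjusted 0.0257 and 0.0859), with 0.816 on leaving out 2 libraries. Procr and Serpine2 had r = -0.882 and rho = -0.988 in WT (permutation p = 0.00083 and 3e-05, n = 10; adjusted 0.0299 and 0.00268), with -0.916 on leaving out 2 libraries. Plau and Serpine2 in vehicle libraries passed by rho alone, with r = 0.801 and rho = 0.983 (exact permutation p = 0.00402 and 4.96e-05, n = 9; adjusted 0.0869 and 0.00268), and r was 0.928 on leaving out 2 libraries. Plat and Plau had an r of -0.227 with Scl-Ab and 0.711 in WT, and Procr and Serpine2 one of -0.523 with Scl-Ab and 0.0225 with vehicle. These pairs passed in 1 group each, and the difference between groups was not tested. In WT replicates 20 to 22, Procr was 4.98 to 6.98 and Serpine2 662 to 703. In WT replicates 23 to 29, Procr was 9.03 to 13.9 and Serpine2 518 to 659. The part of replicate order in the relation of Procr and Serpine2 was not tested.

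Relations with the mean log2 level of marker lists and with the clock index were computed and adjusted in the same way (9 members, 4 scores, 3 groups), and 9 passed by Pearson's r. Serpine2 followed the contractile score in both model groups. With Scl-Ab r was 0.848 and rho 0.891 (permutation p = 0.00263 and 0.0012, n = 10; adjusted 0.0406 and 0.0259), and 0.711 without 2 libraries. With vehicle r was 0.957 and rho 0.967 (exact permutation p = 4.69e-05 and 0.000165, n = 9; adjusted 0.00270 and 0.00594), and 0.944 without 2 libraries. In WT r was 0.588 (permutation p = 0.0758, n = 10; adjusted 0.256). Serpine2 also went against the endothelial score, with r = -0.851 and rho = -0.900 with vehicle (exact permutation p = 0.000852 and 0.00203, n = 9; adjusted 0.0184 and 0.0313) and r = -0.821 and rho = -0.939 in WT (permutation p = 0.00399 and 0.00022, n = 10; adjusted 0.0479 and 0.00594). Without 2 libraries those r were -0.683 and -0.853. The WT endothelial score was 3.16 to 3.56 in replicates 20 to 22 and 3.61 to 4.24 in replicates 23 to 29. The part of replicate order in the WT relations with this score was not tested. Procr followed the endothelial score in WT, with r = 0.950 and rho = 0.964 (permutation p = 5e-05 and 6e-05, n = 10; adjusted 0.00270 and 0.00324), and 0.882 without 2 libraries, while r was 0.806 with Scl-Ab (adjusted permutation p 0.0757) and 0.0713 with vehicle. Thbd and the macrophage score in WT had r = 0.847 and rho = 0.709 (permutation p = 0.00145 and 0.0270, n = 10; adjusted 0.0261 and 0.159), and 0.684 without 2 libraries. Plat and the contractile score in vehicle libraries had r = 0.878 and rho = 0.900 (exact permutation p = 0.000692 and 0.00203, n = 9; adjusted 0.0184 and 0.0313), and 0.862 without 2 libraries. With Scl-Ab the same r was 0.832 and rho 0.782 (permutation p = 0.00323 and 0.0105, n = 10; adjusted 0.0436 and 0.103), and 0.648 without 2 libraries, while in WT it was -0.203. For Plau in vehicle libraries r was 0.895 and rho 0.983 (exact permutation p = 0.000441 and 4.96e-05, n = 9; adjusted 0.0159 and 0.00324), and 0.941 without 2 libraries, against -0.242 with Scl-Ab and 0.297 in WT. Among vehicle libraries, those with more contractile RNA had more Serpine2, Plat and Plau. Between groups, contractile markers were lower in the vehicle-treated model than in WT, and Plat and Plau were higher. How these patterns relate was not tested.

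**Figure D5:**
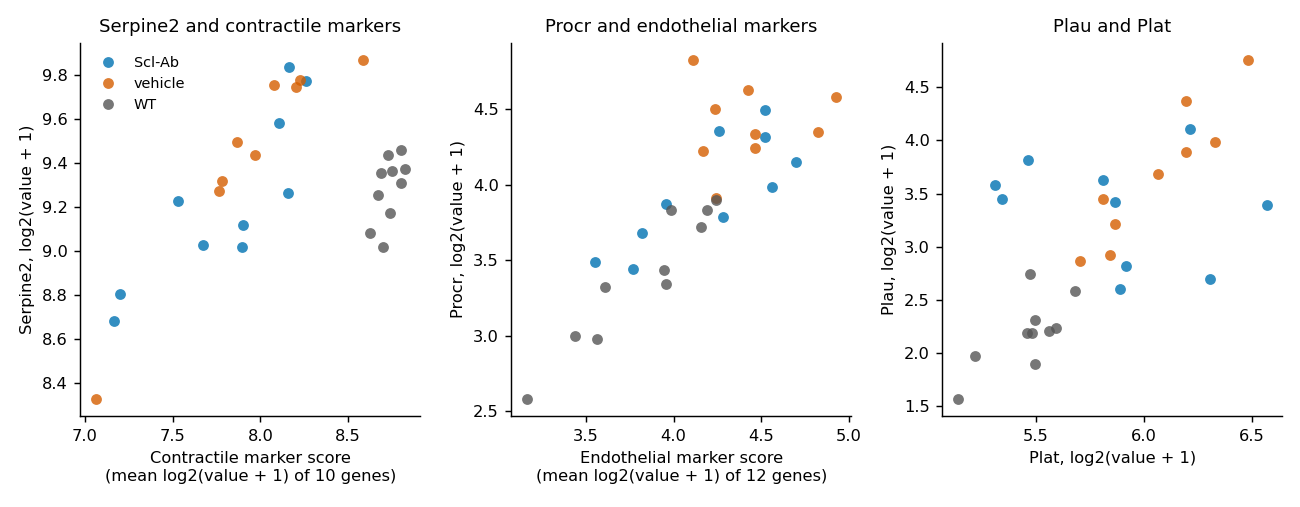
Each point is a library, coloured by group: Serpine2 against the contractile marker score, Procr against the endothelial marker score, and Plau against Plat, all on log2(value + 1) axes that do not start at 0. Serpine2 climbs with the contractile score in both model groups (r 0.848 and 0.957), while the WT libraries sit together at high contractile scores.

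Single libraries set many of the extremes. Vehicle replicate 5 was the highest vehicle library for 8 of the 9 members, all but Tfpi2, and it had the highest contractile score and the lowest clock index of its group. Vehicle replicate 4 was the lowest of its group for 5 members, Thbd, F3, Plaur, Tfpi and Procr. Vehicle replicate 1 had the lowest Plat, Plau and Serpine2, the highest Tfpi2 and the lowest contractile score of its group. With Scl-Ab, replicate 13 was highest for 4 members, Plau, Plaur, Tfpi and Tfpi2. In WT, replicate 20 was lowest for 4 members and replicate 21 for 2. Leaving out any single library kept the count of members called in the vehicle-treated model against WT at 8, and that in the Scl-Ab-treated model against WT at 6 or 7.

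The genes whose levels followed each member most closely across the 29 libraries, after the group means were removed, are given with Pearson's r as a description. For Serpine2 they were Htra1 (0.966), Cpe (0.942) and Npnt (0.938). For Tfpi2 they were P4ha3 (0.921), Piezo2 (0.883) and Adamts12 (0.856). Procr was most like Megf6 (0.845), Mmrn2 (0.841) and Ecscr (0.821), and Thbd most like Daam1 (0.869), Arl5a (0.811) and Rras2 (0.782). Plat was most like Fgf13 (0.874), Sorl1 (0.871) and Dhx32 (0.871), and Plau most like Plxna1 (0.861), Atg5 (0.843) and Arl4c (0.818). Plaur was most like Tmem184b (0.826), Dbn1 (0.805) and Slc16a3 (0.799). Tfpi was most like Mfsd14b (0.859), Slc35a3 (0.841) and Stt3b (0.840). F3 had the weakest nearest gene of the 9, Maml2 (0.799), followed by Podn (0.720) and Mtss1l (0.707).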

How the data were processed

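RNA-seq values of 29 aortic arch libraries (10 Scl-Ab, 9 vehicle, 10 WT) were analysed. Groups and replicate numbers come from the labels, and no number is shared between groups, so no pairing was used. Each deposited file gives 1 FPKM-like value per gene symbol, named FPKQ per the file headers and not spelled out there. The authors' values had an 85th percentile of 6.99 to 7.30 in every library. GRCm38 and DESeq2 1.10.1 are named in the submitters' processing notes with no role. For the aligner and the counting method the entry is not given in the sources used here. Libraries were stranded, per the labels' protocols.

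Low genes were left out, and the 13510 genes that reached 1 in 9 or more libraries were fitted on log2(value + 1). The fit used limma 3.58.1 under R 4.3.3 with trended, robust variances and 3 group means and Benjamini-Hochberg adjustment over all of them. A count model was not used, since counts were not at hand. The fit was tested on simulated data. Depth was estimated from steps of low values, of which 76.3 to 78.8% lay within 0.05 of a whole step, and total reads are unknown. Relations within groups used exact permutation for n = 9 and 100000 permutations for n = 10. Coordinates are from GENCODE M21 (GRCm38), and no member overlapped another annotated gene.

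The members, gene lists and tests were chosen with earlier results of these data known. Named genes were the members, Vwf, F13a1, F2r, Apoe and Sost, up to 3 genes of smallest p per list and comparison, and the 3 genes most like each member. A further listed gene is not reported here and is left out of the counts of list genes. Alternatives were the pseudocount, the filter on low values, library scaling, the libraries and groups fitted, the test, the variance model and a clock index covariate.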

Additional observations from a re-analysis of the deposited data

Results flagged for a closer look

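Of 36 sets of values (12 genes in 3 groups), 2 had a library far from the rest, where chance alone flags about 1 in 20 sets. Both were Scl-Ab replicate 13. Plaur was highest there at 23.2, and the nearest Scl-Ab library had 14.3. Tfpi2 was highest there at 3.50, and the nearest Scl-Ab library had 1.78. Without this library Plaur was no longer called in the Scl-Ab-treated model against WT, and Tfpi2 still was.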

How the results depend on the processing

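No result reversed a called direction under any alternative tried. In the vehicle-treated model against WT, 8 members were called, and 5 with the clock index as covariate, where F3, Plaur and Tfpi2 were lost; Tfpi2 was also lost under quantile normalization. In the Scl-Ab-treated model against WT, 7 members were called, and 6 to 7 when single libraries were left out. With Scl-Ab against vehicle 0 members were called, and 0 to 1 when single libraries were left out (Thbd without vehicle replicate 4). The other coagulation and fibrinolysis genes had 11 calls in the Scl-Ab-treated model against WT, and 7 with a minimum value of 5. With Scl-Ab against vehicle they had 2 calls. They had 1 with no filter, 1 with a minimum value of 5, and 0 with equal totals, the Wilcoxon test, the clock index, the 2 groups alone, or without the 4 libraries whose title code has 1 as its second digit. Leaving out single libraries gave 1 to 4 calls, with 4 without Scl-Ab replicate 13 or 19 and 1 without Scl-Ab replicate 12, 15 or 18 or vehicle replicate 3, 5, 6, 7 or 8. Over all tested genes this comparison had 1005 calls, against 447 with no filter, 369 with equal totals, 412 with the Wilcoxon test, 3 with the clock index, 309 with the 2 groups alone and 577 without those 4 libraries. Leaving out single libraries gave 547 to 1223 calls, the lowest without vehicle replicate 2, then 607 without replicate 6 and 628 without replicate 5. The cause of these changes was not tested. Tfpi2 could not be tested at a minimum value of 5. No scaling moved the median of all genes by more than 0.1 on the log2 scale. No paired analysis was possible because the groups share no replicate numbers. Depth limits the lowest member most: Tfpi2 stood on about 8 to 131 fragments a library, if its 1747 exon bases were the length used.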
